A study of Mus musculus with 30 samples.

Results

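Cytochrome P450 family 2 was followed in 30 mouse liver transcriptomes. Its members were the genes whose symbol is Cyp2 followed by a subfamily letter and a number and whose expected counts summed to at least 100 over all libraries. Such a symbol was carried by 48 of the 55450 genes counted, and 36 of them reached the minimum. They comprised 4 genes of subfamily 2a, 3 of 2b, 13 of 2c, 7 of 2d, 3 of 2j and 1 each of 2e, 2f, 2g, 2r, 2s and 2u. The other 12 symbols, of which Cyp2c65 had the most counts with 51, were not followed further, and the members nearest to the minimum were Cyp2d11 with 125 and Cyp2g1 with 139.

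Cytochrome P450 enzymes are haem proteins of the endoplasmic reticulum that insert an oxygen atom into their substrates with electrons passed on by NADPH-cytochrome P450 reductase (Por). Family 2 of the mouse grew by repeated tandem duplication, so that several subfamilies sit as clusters of near-copies, and its enzymes oxidise drugs, solvents, steroids and fatty acids, mostly in hepatocytes. Their transcription in liver is known to depend on hepatocyte nuclear factors, the C/EBP factors, the xenobiotic receptors CAR (Nr1i3) and PXR (Nr1i2), and, for some members, on the sex-specific pattern of growth hormone.

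The livers came from 3 experiments on male mice backcrossed to C57BL/6N and fed a high-fat, high-cholesterol and high-fructose diet (HFCFD), each with 5 Cebpa fl/fl control mice, labelled Cre-, and 5 knockout mice, labelled Cre+. In HFCFD2W the knockout mice were Cebpa ΔHep mice, in which Cre driven by the albumin promoter deletes Cebpa, the gene of the transcription factor C/EBPα, in hepatocytes from early life, and all mice were fed for 2 weeks without tamoxifen. In HFCFD8W+T10D and HFCFD12W+T10W the knockout mice were Cebpa ΔHep,ERT2 mice, in which an albumin-driven Cre becomes active with tamoxifen, and the controls of these experiments received tamoxifen as well. The labels give 8 weeks of diet with 10 days of tamoxifen for the former and 12 weeks of diet with 10 weeks of tamoxifen for the latter. The HFCFD12W+T10W mice were fed for 22 weeks in all and received tamoxifen over the last 10. Diet time, the Cre allele, tamoxifen and age differ together between the experiments and cannot be told apart, so comparisons between experiments are given as differences between these sets of conditions.

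The 30 libraries held 7996123 to 10257347 expected counts with a median of 8992014. Cebpa itself read 149 to 193 CPM in the HFCFD2W controls against 3.43 to 5.68 in the knockout livers, 121 to 156 against 11.1 to 25.1 in HFCFD8W+T10D, and 82.5 to 135 against 18.7 to 23.8 in HFCFD12W+T10W, so every library matched its genotype label. Levels given as CPM are counts scaled to a common library total after adjustment of library sizes by a trimmed mean (TMM) over all 30 libraries. Levels of different genes are compared only in TPM, a unit that also divides by the length of the transcript. A member was called changed at an adjusted p under 0.05 in the quasi-likelihood test of edgeR together with a change of over 2-fold, and differences are given as log2 of knockout over control with the standard error (SE).

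The 36 genes were placed on GRCm38. Subfamilies 2a, 2b, 2f, 2g and 2s share a stretch of chromosome 7, with Cyp2s1 at chr7:25802475-25816913, the 2b genes between 25897620 and 26210661, the 2a genes between 26307169 and 27037375, Cyp2g1 at chr7:26808892-26821205 among them, and Cyp2f2 at chr7:27119909-27133660. Cyp2r1 (chr7:114549682-114562972) and Cyp2e1 (chr7:140763739-140774987) lie apart on the same chromosome. The 2c genes occupy chr19:39007019-44029208, the 2d genes chr15:82370527-82794294, the 2j genes chr4:96516138-96664154, and Cyp2u1 chr3:131288441-131303227.

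Because many members are near-copies, their reads can fit more than 1 gene, and RSEM divides such reads by estimation. Of the 36 members 26 had an expected count that was off a whole number by more than 0.005 in at least 1 library. Exonic sequence shared with another gene placed 17 members in 7 groups, at a limit of 10% of all stretches of 50 bases: Cyp2a12 with Cyp2a22, Cyp2a4 with Cyp2a5, Cyp2b9 with Cyp2b13, Cyp2c37 with Cyp2c50 and Cyp2c54, Cyp2c38 with Cyp2c39, Cyp2c40 with Cyp2c67, Cyp2c68 and Cyp2c69, and Cyp2d10 with Cyp2d11. The value of each of these 17 genes is uncertain to the extent that the division was, and the sum over its group is given beside it where a result turns on it. Among the pairs compared, which had coding sequences of equal length and did not include Cyp2c40, Cyp2a4 and Cyp2a5 were the most similar, with 98.4% identity or 23 differences in 1482 bases, and Cyp2c67, Cyp2c68 and Cyp2c69 were identical to one another at 96.5% to 97.7%. Coding bases 598 to 657 of the former pair are shown with the 4 differing bases in capitals, since only reads over such bases tell a female-type steroid hydroxylase from a coumarin hydroxylase.
Cyp2a4: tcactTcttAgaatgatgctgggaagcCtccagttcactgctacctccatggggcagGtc
Cyp2a5: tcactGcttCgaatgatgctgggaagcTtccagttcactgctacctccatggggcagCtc
For the 2c trio, coding bases 1060 to 1119 are shown, where 8 positions, in capitals, differ in at least 1 of the 3 genes.
Cyp2c67: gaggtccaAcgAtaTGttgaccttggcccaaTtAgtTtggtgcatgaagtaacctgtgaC
Cyp2c68: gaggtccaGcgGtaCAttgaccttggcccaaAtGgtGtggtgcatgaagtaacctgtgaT
Cyp2c69: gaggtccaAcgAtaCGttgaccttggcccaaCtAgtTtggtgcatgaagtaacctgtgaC
Most of each window is lower case, that is, common to the genes it compares.

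The summed level of the family overlapped between control and knockout livers after 2 weeks of diet, and in TPM it was lower in every knockout liver than in every control in both tamoxifen experiments. In HFCFD2W the family added up to 15552 ± 756 TPM in controls and 16581 ± 2035 in Cebpa ΔHep livers (mean ± SD, n = 5 each), and the libraries overlapped. In HFCFD8W+T10D it added up to 17156 ± 401 TPM in controls and 10510.1 ± 2667 in Cebpa ΔHep,ERT2 livers, or 61.3% of the control mean, with 16556 TPM in the lowest control and 14808 in the highest knockout liver. In HFCFD12W+T10W it added up to 19069 ± 1164 and 9509.8 ± 786 TPM, or 49.9%, again without overlap. Summed CPM after TMM scaling gave 98.1%, 55.0% and 37.5% of the control means. In this unit the genotypes overlapped in HFCFD8W+T10D, where knockout replicate 4 reached 24796 CPM and the lowest control 22397.5, and were apart in HFCFD12W+T10W. Whole liver was sequenced, so fewer hepatocytes and less RNA per hepatocyte cannot be told apart.

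**Figure D1:**
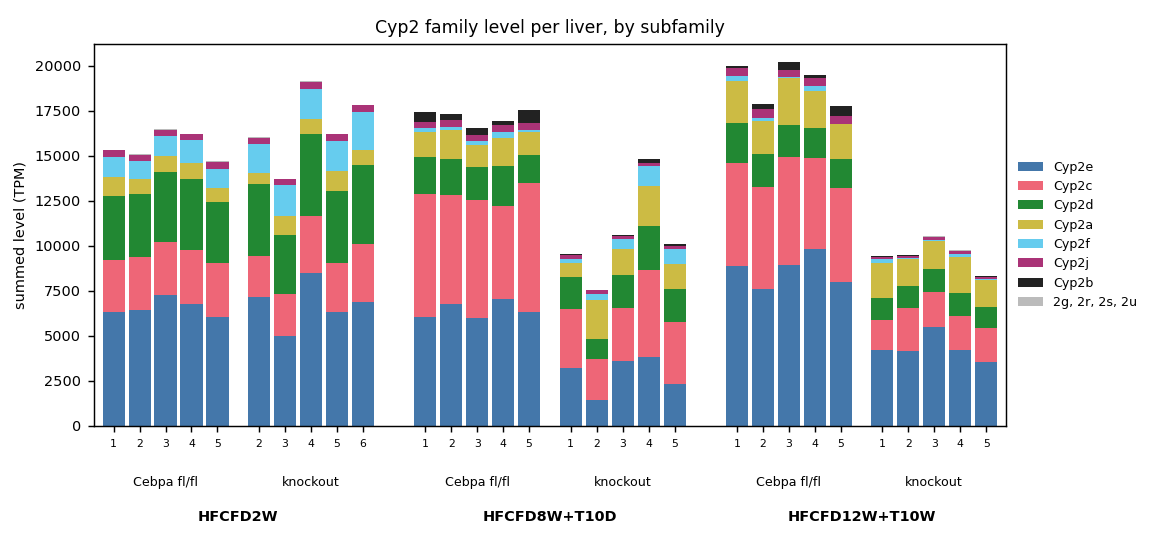
Summed TPM of the 36 family members in each of the 30 livers, stacked by subfamily and grouped by experiment and genotype. By group mean Cyp2e1, the only 2e gene, forms the largest layer in every group except the HFCFD8W+T10D knockout livers. There the 2c genes add up to more, 3342 against 2884 TPM. The knockout bars of HFCFD8W+T10D and HFCFD12W+T10W all end below the lowest control bar of their experiment.

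Levels of markers of other cells moved in the same livers, and their part in the result was not tested. In HFCFD12W+T10W the summed CPM of 5 cholangiocyte markers was 3.22 to 5.17 in controls and 34.8 to 61.3 in knockout livers, that of 5 macrophage markers 147 to 395 and 504 to 594, and that of 5 stellate and fibroblast markers 239 to 298 and 932 to 1150, with 5 of 5, 4 of 5 and 5 of 5 markers higher at an adjusted p under 0.05. The 5 hepatocyte markers added up to 94987 to 120554 CPM in these controls and 61452 to 67826 in the knockout livers, where 2 of 5 were lower. The median log2 difference of these 5 markers was -0.03, and 2 of 5 estimates lay above 0. In HFCFD8W+T10D 2 of the 4 tested cholangiocyte, 4 of 5 macrophage and 2 of 5 stellate and fibroblast markers were higher and 1 of 5 hepatocyte markers was lower, with overlapping sums. In HFCFD2W 2 of 4 tested macrophage markers were higher and 0 of the tested cholangiocyte, stellate and hepatocyte markers passed in either direction. Of 4 endothelial markers 0, 1 and 2 were lower in the 3 experiments, and of the 1, 2 and 1 tested lymphocyte markers 0, 1 and 1 were higher. At this threshold 8.6%, 10.3% and 27.4% of all genes tested were higher in HFCFD2W, HFCFD8W+T10D and HFCFD12W+T10W, and 8.09%, 6.85% and 23.8% lower. No gene of these lists was at 0 in all libraries of a group.

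More members were called in the tamoxifen experiments than in HFCFD2W. In HFCFD2W 27 members had enough counts to be tested, of which 4 fell, against 1.38% of all genes tested, and 1 rose, against 1.69%. In HFCFD8W+T10D 14 of 33 fell, against 2.01%, and 2 rose, against 4.09%. In HFCFD12W+T10W 17 of 33 fell, against 3.47%, and 1 rose, against 14.3%. The median log2 difference over tested members was -0.14, -1.07 and -1.09 in the 3 experiments, while that over all tested genes was 0.01 in each. Without the 2-fold minimum 6, 15 and 25 members were lower, against 8.09%, 6.85% and 23.8% of all genes, and 4, 2 and 1 were higher, against 8.6%, 10.3% and 27.4%.

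Some members were called in every experiment. Cyp2a4, Cyp2c38 and Cyp2c40 fell in all 3, and Cyp2d12 was the 1 member that rose in all 3. Of the 14 members that fell in HFCFD8W+T10D 13 also fell in HFCFD12W+T10W, which is 92.9% of the former list and 76.5% of the latter, and the exception was Cyp2u1. The same overlap over all genes is not given here, so this sharing is not to be read as a trait of the family. Livers without overlap between genotypes were seen for 3 higher and 3 lower members in HFCFD2W, against 6.33% and 6.13% of all genes, for 1 and 8 in HFCFD8W+T10D, against 6.01% and 5.5%, and for 1 and 22 in HFCFD12W+T10W, against 19.6% and 19.5%. The smaller number of separated members in HFCFD8W+T10D went with a wide spread of its knockout livers, in which replicate 4 was the highest and replicate 2 the lowest for many members. Without replicate 4 of these livers, Cyp2a12, Cyp2c37, Cyp2c54, Cyp2d9, Cyp2d22 and Cyp2j6 gained an adjusted p under 0.05 and Cyp2f2 lost it.

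**Figure D2:**
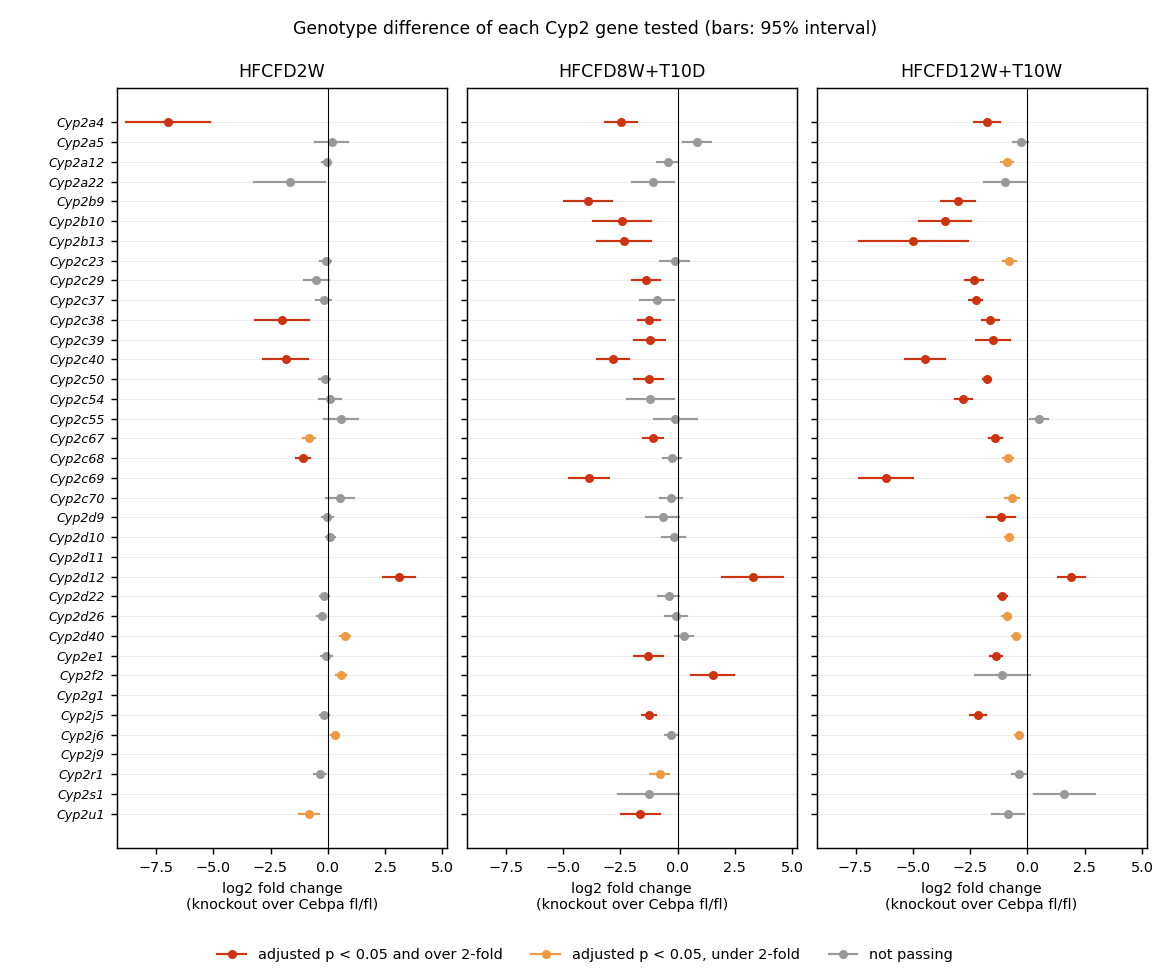
Log2 of knockout over control for each tested member with its 95% confidence interval, in 3 panels for the 3 experiments, with members ordered by subfamily. In HFCFD12W+T10W 30 of 33 estimates lie below 0, in HFCFD8W+T10D 29 of 33 and in HFCFD2W 18 of 27, while Cyp2d12 lies above 0 in each panel.

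Differences between the genotype effects were tested in a joint fit of the 30 libraries for 34 members. The effect was more negative in HFCFD12W+T10W than in HFCFD2W for 16 members, against 17.3% of all genes, and more positive for 1, against 13.4%. From HFCFD2W to HFCFD8W+T10D it was more negative for 4 and more positive for 2, against 6.79% and 4.45%, and from HFCFD8W+T10D to HFCFD12W+T10W for 5 and 1, against 5.49% and 4.97%. The last count of 5 depended on single knockout livers of HFCFD8W+T10D, since it became 1 without replicate 4 and 11 without replicate 2. The 1 more positive effect of that comparison was that of Cyp2s1, at 2.84 (adjusted p = 0.0498 in edgeR). It was lost in 12 of 20 fits without 1 library.

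Cyp2e1, the ethanol-inducible P450 that also oxidises acetone and paracetamol, was the most abundant member in TPM in all 6 groups. Its level reached 6567 ± 466 TPM in the HFCFD2W controls, 6428 ± 462 in the HFCFD8W+T10D controls and 8646 ± 884 in the HFCFD12W+T10W controls, and 6767 ± 1278, 2884 ± 982 and 4312 ± 711 in the knockout livers of the same experiments (SD, n = 5 each). The controls of HFCFD2W read 10859, 11235, 11372, 11663 and 12424 CPM and the Cebpa ΔHep livers 7936, 9916, 11108, 11597 and 14414. These ranges overlapped, and the log2 difference was -0.07 (SE 0.13, adjusted p = 0.771). In HFCFD8W+T10D the controls read 8272, 8741, 9152, 9772 and 12147 CPM and the knockout livers 1481, 2626, 4125, 4873 and 6485, and in HFCFD12W+T10W 9762, 10377, 12141, 12379.8 and 13604 CPM in controls and 3467, 4054, 4288, 4324 and 5702 in knockout livers. Every knockout liver of both tamoxifen experiments was below every control, and Cyp2e1 fell with log2 differences of -1.28 (SE 0.32, adjusted p = 0.017) and -1.37 (SE 0.14, adjusted p = 7.47e-06). The effect differed from that in HFCFD2W by -1.23 (SE 0.33, adjusted p = 0.0136) for HFCFD8W+T10D and by -1.35 (SE 0.33, adjusted p = 0.00249) for HFCFD12W+T10W on the log2 scale, whereas between the tamoxifen experiments it differed by -0.12 (SE 0.33, adjusted p = 0.869).

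The 13 genes of subfamily 2c, many of which turn arachidonic acid into epoxides or hydroxy acids, held the most called members of any subfamily. In TPM their sum was 92.4% of the control mean in Cebpa ΔHep livers of HFCFD2W, with overlap, and 52.6% and 35.5% in the knockout livers of HFCFD8W+T10D and HFCFD12W+T10W, without overlap. Summed in CPM the genotypes of HFCFD8W+T10D overlapped, with 7996 in knockout replicate 4 and 6883 in the lowest control. Of the tested members 3 of 11, 7 of 13 and 9 of 13 fell in the 3 experiments in this order, and 0 rose in any of them.

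Cyp2c29, an arachidonic acid epoxygenase, was the most abundant 2c gene, and it was second to Cyp2e1 in both HFCFD8W+T10D groups and in the HFCFD12W+T10W controls, with control means of 3001 and 2627 TPM in these experiments, while Cyp2a5 was second in the HFCFD12W+T10W knockout livers with 1157 TPM. It read 1552, 1677, 1812, 1931 and 2054 CPM in the HFCFD2W controls and 632, 653, 1515, 1729 and 1862 in the Cebpa ΔHep livers, of which a pair lay far below all others. The difference of -0.50 (SE 0.27, adjusted p = 0.235) did not pass. In HFCFD8W+T10D its controls read 3171, 3689.6, 4879.6, 4966 and 5188 CPM and its knockout livers 821, 1293, 1341, 1635 and 3298, so that only the highest knockout liver reached the control range, and it fell by 1.37 (SE 0.31, adjusted p = 0.011) on the log2 scale. In HFCFD12W+T10W it read 2826, 3119, 3503, 3709.5 and 4048 CPM in controls and 392, 564, 685, 710.5 and 960.2 in knockout livers without overlap and fell by 2.33 (SE 0.20, adjusted p = 2e-06).

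Cyp2c37, Cyp2c50 and Cyp2c54, which metabolise arachidonic acid and share part of their reads, differed most in HFCFD12W+T10W. There the controls of Cyp2c37 read 646, 671, 716, 882 and 949 CPM and its knockout livers 117, 148, 163, 166 and 191. Cyp2c50 read 1028, 1047, 1216, 1346 and 1364 CPM in controls and only 333, 335, 343, 346 and 346 in knockout livers, the narrowest spread of the 3. Cyp2c54 read 319, 446, 486, 505 and 533 CPM in controls and 45.3, 50.1, 62.4, 73.5 and 87.9 in knockout livers. The genotypes were apart for each gene, and they fell with log2 differences of -2.26 (SE 0.15, adjusted p = 2.98e-07), -1.77 (SE 0.10, adjusted p = 5.81e-08) and -2.80 (SE 0.19, adjusted p = 3.67e-07). In HFCFD8W+T10D the differences were -0.91 (SE 0.38, adjusted p = 0.118), -1.26 (SE 0.32, adjusted p = 0.0177) and -1.19 (SE 0.53, adjusted p = 0.142), of which only that of Cyp2c50 was a call, and without knockout replicate 4 those of Cyp2c37 and Cyp2c54 became -1.43 (adjusted p = 0.00385) and -1.91 (adjusted p = 0.00965). In HFCFD2W the 3 genes differed by -0.19 (SE 0.16, adjusted p = 0.479), -0.14 (SE 0.12, adjusted p = 0.457) and 0.10 (SE 0.25, adjusted p = 0.82), with overlap. The effect on Cyp2c37 in HFCFD12W+T10W differed from that in HFCFD8W+T10D by -1.38 (SE 0.40, adjusted p = 0.025), but by -0.87 (adjusted p = 0.0785) without HFCFD8W+T10D knockout replicate 4, and the test was also lost without HFCFD12W+T10W control replicate 3. As a sum the 3 genes reached 101%, 48.4% and 30.8% of the control mean in TPM.

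The set of Cyp2c40, Cyp2c67, Cyp2c68 and Cyp2c69 was the group of read-sharing genes whose sum in TPM was lower without overlap in all 3 experiments, at 58.1%, 67.2% and 56.6% of the control mean. In CPM this held in HFCFD2W and HFCFD12W+T10W, whereas in HFCFD8W+T10D knockout replicate 4, at 661, lay above the lowest control, at 561. Cyp2c40 and Cyp2c69 are expressed more in female than in male mouse liver, and both were at low levels in the HFCFD2W controls. Cyp2c40 read 1.56, 4.66, 6.23, 8.91 and 10.3 CPM in these controls and 0.511, 1.06, 1.12, 2.95 and 3.24 in the Cebpa ΔHep livers, with 1 control inside the knockout range. Its levels in HFCFD8W+T10D were 21.2, 75.1, 82.7, 94.1 and 104 CPM in controls and 7.31, 8.56, 8.64, 13.5 and 15.1 in knockout livers, and in HFCFD12W+T10W 14.7, 25.7, 32.5, 45 and 75.1 CPM in controls and 0.73, 1.29, 2.01, 2.02 and 2.28 in knockout livers, without overlap in either. It fell in each experiment, with log2 differences of -1.85 (SE 0.49, adjusted p = 0.022), -2.82 (SE 0.36, adjusted p = 0.000264) and -4.47 (SE 0.45, adjusted p = 5.58e-06). The first of these was lost without HFCFD2W control replicate 2 (-1.70, adjusted p = 0.0548) or control replicate 4 (-1.60, adjusted p = 0.0563).

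Cyp2c69 was not tested in HFCFD2W, where its highest library read 2.9 CPM. Its HFCFD8W+T10D livers read 8.53, 30.6, 37.3, 48 and 64.4 CPM in controls and 1.56, 2.25, 2.6, 2.66 and 3.91 in knockout livers, and in HFCFD12W+T10W 5.23, 7.93, 11.2, 17.4 and 26.4 CPM in controls and 0, 0.174, 0.182, 0.243 and 0.277 in knockout livers, the last being 0 to 3 counts a library. No knockout liver reached a control, and Cyp2c69 fell with log2 differences of -3.87 (SE 0.45, adjusted p = 0.000151) and -6.16 (SE 0.60, adjusted p = 4.49e-06), the latter estimate with a 95% interval from -7.34 to -4.99. Cyp2c67 read 401, 404, 423, 538 and 561 CPM in the HFCFD2W controls and 219, 220.2, 263, 301 and 311 in the knockout livers, without overlap, and the difference of -0.82 (SE 0.13, adjusted p = 0.000914) was under 2-fold. It fell in HFCFD8W+T10D and HFCFD12W+T10W with differences of -1.09 (SE 0.22, adjusted p = 0.00588) and -1.40 (SE 0.15, adjusted p = 8.26e-06). Cyp2c68 fell in HFCFD2W, from 137, 172, 182, 190.1 and 199 CPM in controls to 63.5, 65.7, 76.9, 98.2 and 115 in knockout livers, by 1.07 (SE 0.16, adjusted p = 0.000589). It read 248 to 451 CPM in the controls and 187 to 433 in the knockout livers of HFCFD8W+T10D, where the difference of -0.26 (SE 0.20, adjusted p = 0.432) did not pass, and its difference of -0.84 (SE 0.11, adjusted p = 4.52e-05) in HFCFD12W+T10W was under 2-fold.

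**Figure D3:**
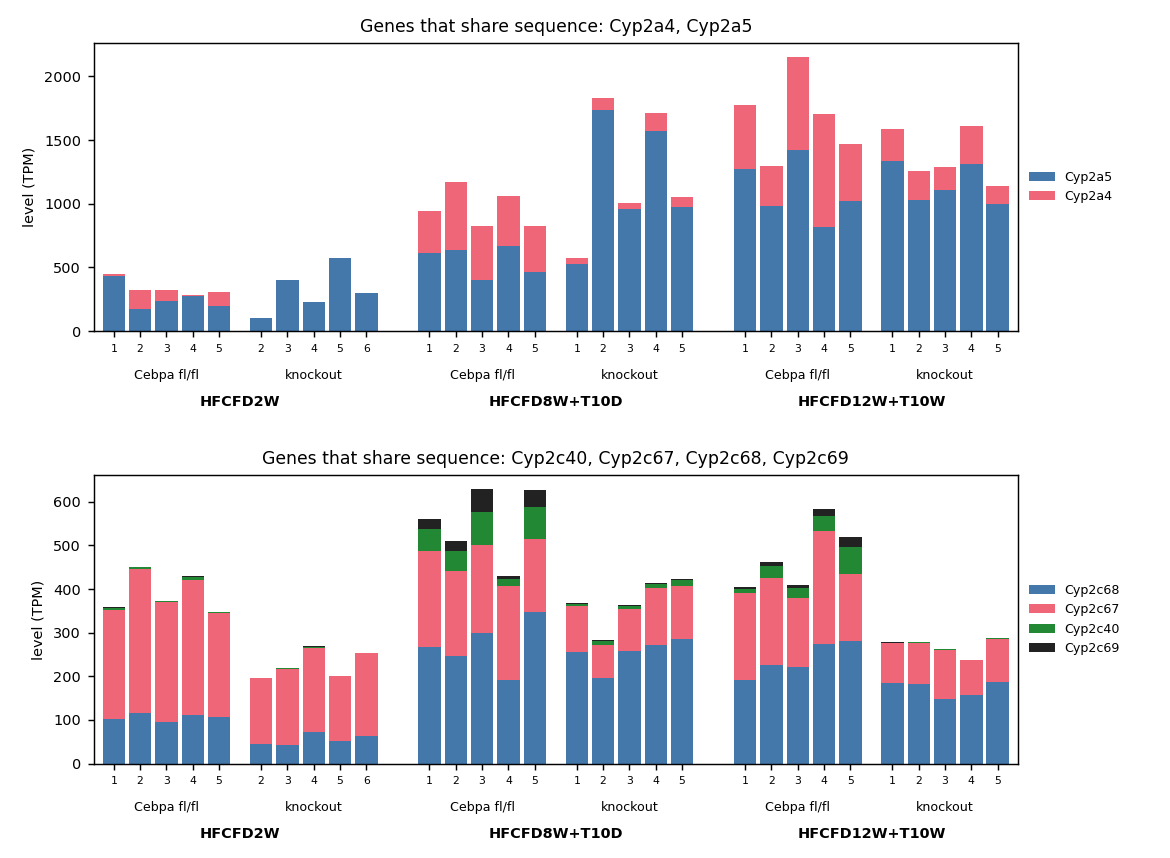
Stacked TPM of 2 sets of read-sharing genes in each liver, Cyp2a4 with Cyp2a5 and Cyp2c40 with Cyp2c67, Cyp2c68 and Cyp2c69. The sum of Cyp2a4 and Cyp2a5 overlaps between genotypes in all 3 experiments while the Cyp2a4 layer shrinks in the knockout livers, and the sum of the 2c set is lower in every knockout liver than in every control of its experiment.

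Cyp2c38, a further arachidonic acid epoxygenase, fell in all 3 experiments with log2 differences of -2.01 (SE 0.60, adjusted p = 0.0362), -1.25 (SE 0.24, adjusted p = 0.00461) and -1.61 (SE 0.19, adjusted p = 2.05e-05). It read 10.9, 19.1, 21.5, 32.1 and 40.8 CPM in the HFCFD2W controls and 0.237, 0.673, 7.39, 7.97 and 15.1 in the Cebpa ΔHep livers, so that the highest knockout liver passed the lowest control. That first call was lost in 6 of 10 fits that left out 1 library, while leaving out Cebpa ΔHep replicate 5 moved it to -2.67. The remaining 2c genes were Cyp2c23, Cyp2c39, Cyp2c55 and Cyp2c70, the last of which forms muricholic acids. Cyp2c70 read 298 to 508 CPM in controls and 179 to 271 in knockout livers of HFCFD12W+T10W, with a log2 difference of -0.67 (SE 0.15, adjusted p = 0.00283). In TPM it overlapped there, with 252 to 422 in controls and 208 to 326 in knockout livers. Cyp2c55 was the 2c gene with a higher estimate in HFCFD12W+T10W, at 0.49 (SE 0.20, adjusted p = 0.0609), which did not pass.

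Subfamily 2b, which holds the classic CAR target Cyp2b10 and the female-predominant Cyp2b9 and Cyp2b13, was at 2.43 ± 1.91 TPM in the HFCFD2W controls and was lower in the knockout livers of both tamoxifen experiments. Its sum was 16.8% of the control mean in HFCFD8W+T10D and 12.7% in HFCFD12W+T10W in TPM, without overlap, and all 3 genes were called in both. In CPM the highest knockout liver of HFCFD8W+T10D, replicate 4, read 334 against 333 in the lowest control. Cyp2b10 read 0.138 to 0.71 CPM in the HFCFD2W controls and 0.224 to 0.894 in the knockout livers. In HFCFD8W+T10D it read 258, 519, 536, 689 and 827 CPM in controls and 14.1, 37.2, 65, 84.5 and 322 in knockout livers, of which 1, replicate 4, entered the control range. In HFCFD12W+T10W it read 51.1, 53, 68.4, 192 and 222 CPM in controls and 2.53, 3.04, 13.9, 14 and 14.3 in knockout livers without overlap. It fell with log2 differences of -2.43 (SE 0.64, adjusted p = 0.0213) and -3.58 (SE 0.57, adjusted p = 0.000214), and the former was lost without knockout replicate 1 (-2.30, adjusted p = 0.0517) or replicate 3 (-2.22, adjusted p = 0.0515) and became -3.49 (adjusted p = 0.000571) without replicate 4.

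Cyp2b9 had no count in any Cebpa ΔHep liver of HFCFD2W and read 0, 0.89, 4.9, 5.82 and 6.38 CPM in the controls, a mean that was at least 9.55-fold higher than 3 counts in a knockout library would give, in a comparison that was not tested. Levels of Cyp2b9 in HFCFD8W+T10D were 37.4, 73.6, 104, 140.2 and 184 CPM in controls and 0.987, 4.44, 6.27, 11.4 and 12.6 in knockout livers, and in HFCFD12W+T10W 139, 174, 287, 299.7 and 339 CPM in controls and 11.8, 19.6, 26.8, 32 and 57.1 in knockout livers. The genotypes were apart in both, and Cyp2b9 fell with log2 differences of -3.93 (SE 0.53, adjusted p = 0.000431) and -3.03 (SE 0.38, adjusted p = 3.1e-05). Cyp2b13, named here after its values were seen, read 1.95, 3.09, 19.6, 46.6 and 255 CPM in the HFCFD12W+T10W controls and 0.422, 1.19, 1.38, 3.05 and 4.1 in the knockout livers. The highest controls were replicates 5 and 3, and the lowest 2 controls lay within the knockout range. Its log2 difference of -4.98 (SE 1.21, adjusted p = 0.00411) became -3.11 (adjusted p = 0.00804) without control replicate 5. In HFCFD8W+T10D its difference was -2.34 (SE 0.60, adjusted p = 0.0188), and -1.67 (adjusted p = 0.0491) without control replicate 5.

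In subfamily 2a the 2 near-copies parted. Cyp2a4, a testosterone 15α-hydroxylase that is higher in female liver, read 11.5, 33.7, 132, 188 and 256 CPM in the HFCFD2W controls and 0.112, 0.269, 0.947, 1.08 and 2.56 in the Cebpa ΔHep livers. After 10 days of tamoxifen it read 472, 473, 519.9, 554 and 912 CPM in controls and 60.2, 60.7, 86.4, 89.5 and 229 in knockout livers, and in HFCFD12W+T10W 384, 552, 646, 962 and 1155 CPM in controls and 128, 182, 216, 244 and 290.4 in knockout livers. The controls of HFCFD2W spread widely, yet the genotypes did not overlap in any experiment. Cyp2a4 fell with log2 differences of -6.97 (SE 0.93, adjusted p = 0.000292), -2.47 (SE 0.35, adjusted p = 0.000609) and -1.76 (SE 0.29, adjusted p = 0.000257), and without Cebpa ΔHep replicate 5 the first value was -7.68. The effect was weaker in both tamoxifen experiments than in HFCFD2W, by 4.49 (SE 0.90, adjusted p = 0.00142) and 5.17 (SE 0.89, adjusted p = 9.51e-05), or by 5.2 and 5.87 without Cebpa ΔHep replicate 5.

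Cyp2a5, the coumarin 7-hydroxylase, did not pass the test in any experiment. It read 340.2, 391, 409.6, 567 and 862 CPM in controls and 174, 437, 559.9, 719 and 997 in knockout livers of HFCFD2W, 620.5, 708, 1024, 1042 and 1252 CPM in controls and 748, 1238, 1443, 1950.0 and 2967 in knockout livers in HFCFD8W+T10D, and 1264, 1399, 1488, 1937 and 2193 CPM in controls and 1095, 1118, 1286, 1500.5 and 1530.2 in knockout livers in HFCFD12W+T10W. All 3 pairs of ranges overlapped, and the log2 differences were 0.17 (SE 0.37, adjusted p = 0.793), 0.86 (SE 0.32, adjusted p = 0.0802) and -0.30 (SE 0.16, adjusted p = 0.135). The sum of Cyp2a4 and Cyp2a5 was 95.4%, 128% and 82.1% of the control mean in TPM with overlap each time. Of the exonic stretches of 50 bases of Cyp2a4 36.1% also occur in Cyp2a5. The values of Cyp2a4 thus rest in part on how RSEM divided the reads of the pair. Cyp2a12, a bile acid 7α-hydroxylase, had a difference of -0.89 (SE 0.13, adjusted p = 0.000117) in HFCFD12W+T10W, under 2-fold, and Cyp2a22, which shares reads with it, did not pass in any experiment. In TPM Cyp2a12 overlapped in HFCFD12W+T10W, with 345 to 517 in controls and 254 to 368 in knockout livers.

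Subfamily 2d held the member that rose in every experiment and several abundant members with few calls. Cyp2d12 read 1.19, 1.28, 1.4, 3.41 and 4.00 CPM in the HFCFD2W controls and 12.3, 12.5, 18.4, 26.4 and 28.1 in the Cebpa ΔHep livers. Its HFCFD8W+T10D levels were 0.59, 0.811, 1.16, 1.73 and 1.74 CPM in controls and 2.34, 3.62, 7.26, 13.3 and 32.5 in knockout livers, and in HFCFD12W+T10W 1.03, 1.21, 1.61, 1.66 and 3.06 CPM in controls and 4.61, 4.62, 5.32, 7.11 and 9.85 in knockout livers. Every knockout liver was above every control of its experiment, and Cyp2d12 rose by 3.11 (SE 0.35, adjusted p = 0.000102), 3.27 (SE 0.68, adjusted p = 0.0069) and 1.92 (SE 0.31, adjusted p = 0.000205) on the log2 scale. Without knockout replicate 4 the value of HFCFD8W+T10D was 2.45 (adjusted p = 0.00547). Of its exonic stretches of 50 bases 7.61% also occur in another gene, and 4.94% occur in the more abundant Cyp2d9, so part of its low counts is uncertain.

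The span of Cyp2d9, a male-predominant testosterone 16α-hydroxylase, overlaps 3 predicted genes on its own strand. Of its exonic stretches of 50 bases 21.8% also occur in another gene. Cyp2d9 was second to Cyp2e1 in both HFCFD2W groups, with 1825 and 1950 TPM in controls and knockout livers. It read 206, 466, 543, 667 and 984 CPM in the HFCFD12W+T10W controls and 214, 224, 231, 245 and 335 in the knockout livers, with the lowest control below all knockout livers, and fell by 1.15 (SE 0.30, adjusted p = 0.00681) on the log2 scale. In TPM Cyp2d9 averaged 472 in these controls and 283 in these knockout livers, a change under 2-fold. Its differences in HFCFD2W and HFCFD8W+T10D were -0.02 (SE 0.12, adjusted p = 0.935) and -0.66 (SE 0.37, adjusted p = 0.249), the latter becoming -1.12 (adjusted p = 0.0186) without knockout replicate 4. Cyp2d26 read 567 to 838 CPM in controls and 365 to 410.1 in knockout livers of HFCFD12W+T10W, a difference of -0.91 (SE 0.10, adjusted p = 1.77e-05) that was under 2-fold. On TMM-scaled counts Cyp2d40 and Cyp2j6 changed sign between HFCFD2W and HFCFD12W+T10W with both differences past the test. Cyp2d40 read 164, 167, 188, 202 and 213 CPM in the HFCFD2W controls and 246, 289, 314, 328 and 373 in the Cebpa ΔHep livers, all of the latter higher, and 33.2, 39.3, 39.8, 44.6 and 46.7 CPM in controls and 24.3, 27.2, 28.3, 28.4 and 30.6 in knockout livers in HFCFD12W+T10W, all of the latter lower. The log2 differences were 0.73 (SE 0.11, adjusted p = 0.000707) and -0.51 (SE 0.09, adjusted p = 0.000658), each under 2-fold, and they differed by -1.28 (SE 0.23, adjusted p = 0.000142). Cyp2j6, an arachidonic acid epoxygenase of subfamily 2j, had differences of 0.32 (SE 0.08, adjusted p = 0.0217) and -0.36 (SE 0.09, adjusted p = 0.00624), which differed by -0.72 (SE 0.16, adjusted p = 0.00146), and the first of its values was lost in 2 of the fits without 1 library. The lower side depended on the unit. In TPM Cyp2j6 averaged 32.1 in HFCFD12W+T10W controls and 32.2 in knockout livers. Cyp2d40 overlapped there, with 41.1 to 59.3 TPM in controls and 40.2 to 51.4 in knockout livers. Of the exonic stretches of 50 bases of Cyp2d40 14.5% also occur in another gene.

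Cyp2j5, an epoxygenase of arachidonic acid with no uncertain reads, had a different effect in each experiment. It read 689, 704, 769.8, 819 and 859 CPM in the HFCFD2W controls and 591, 604, 729.6, 751 and 761 in the Cebpa ΔHep livers, which overlapped. The HFCFD8W+T10D livers read 586, 647, 657, 686 and 810.5 CPM in controls and 201, 254, 259.8, 307 and 389.8 in knockout livers, and in HFCFD12W+T10W 673, 686, 699, 730.3 and 771 CPM in controls and 104, 128, 132, 179 and 229 in knockout livers, so that the control ranges of the 3 experiments overlapped in CPM and the knockout livers stood below them in the last 2. In TPM the HFCFD12W+T10W controls, at 374 to 453, lay above those of HFCFD2W, at 289 to 359. The log2 differences were -0.16 (SE 0.10, adjusted p = 0.297), -1.25 (SE 0.17, adjusted p = 0.000359) and -2.16 (SE 0.18, adjusted p = 1.54e-06). The effect changed by -1.10 (SE 0.23, adjusted p = 0.00184) from HFCFD2W to HFCFD8W+T10D and by a further -0.94 (SE 0.23, adjusted p = 0.00902) from there to HFCFD12W+T10W. Cyp2j5 was the 1 member whose effect differed between all 3 pairs of experiments.

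**Figure D4:**
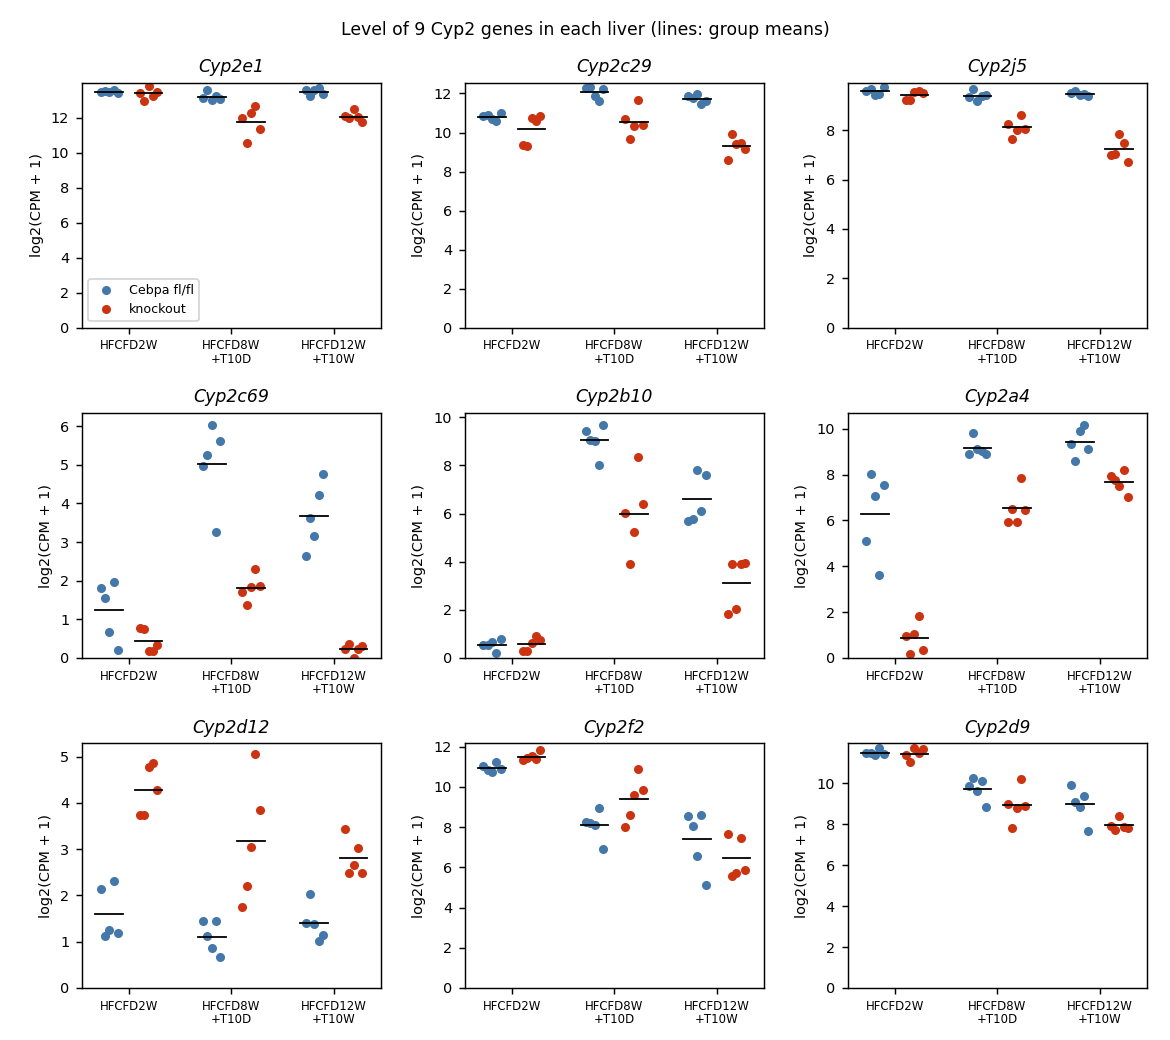
Level of 9 members in each liver as log2(CPM + 1), by experiment and genotype, with short lines at the group means. Cyp2j5 and Cyp2e1 separate by genotype in the tamoxifen experiments only, and Cyp2a4 is lower and Cyp2d12 higher in all knockout livers. The mean of Cyp2f2 is higher in the knockout livers of HFCFD2W and HFCFD8W+T10D and lower in those of HFCFD12W+T10W. The Cyp2f2 levels overlap between genotypes in both tamoxifen experiments.

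Cyp2f2 is a P450 that oxidises naphthalene, and its reads were not divided. Its mean was higher in knockout livers of HFCFD2W and HFCFD8W+T10D and lower in those of HFCFD12W+T10W, where the difference did not pass. It read 1687, 1806, 1923, 2088 and 2406 CPM in the HFCFD2W controls and 2628, 2647, 2802, 2981 and 3625 in the Cebpa ΔHep livers without overlap, a difference of 0.57 (SE 0.11, adjusted p = 0.00496) that was under 2-fold. In HFCFD8W+T10D it read 119, 271, 295, 308 and 496 CPM in controls and 253, 384, 786, 919.6 and 1917 in knockout livers, the lowest 2 of which lay inside the control range, and rose by 1.53 (SE 0.48, adjusted p = 0.0451) on the log2 scale. In HFCFD12W+T10W it read 33.3, 94.3, 265, 379 and 392 CPM in controls and 46.4, 51.5, 57.1, 174 and 202 in knockout livers with overlap, and the difference was -1.09 (SE 0.61, adjusted p = 0.154). The rise in HFCFD8W+T10D rests on few livers, since the call was lost in 7 of the 10 fits without 1 library and was 0.98 (adjusted p = 0.108) without knockout replicate 4. The effect differed between the tamoxifen experiments by -2.65 (SE 0.73, adjusted p = 0.0194), and by -2.11 (adjusted p = 0.062) without that liver. Its differences from the effect in HFCFD2W did not pass, at 0.95 for HFCFD8W+T10D and -1.70 (adjusted p = 0.0739 in edgeR) for HFCFD12W+T10W. The controls of HFCFD12W+T10W with the lowest Cyp2f2, replicates 5 and 3, were also those with the highest Cyp2b13.

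The single genes of the remaining subfamilies were at low levels. Cyp2u1, a fatty acid hydroxylase, fell in HFCFD8W+T10D from 1.57, 2.59, 5.1, 5.21 and 8.94 CPM in controls to 1.07, 1.08, 1.15, 1.41 and 2.75 in knockout livers, by 1.62 (SE 0.44, adjusted p = 0.0227) on the log2 scale, with overlap and with the call lost in 3 fits without 1 library. Its differences in HFCFD2W and HFCFD12W+T10W were -0.83 (SE 0.22, adjusted p = 0.022) and -0.83 (SE 0.36, adjusted p = 0.0691), and that of HFCFD2W was -0.72 (adjusted p = 0.0533) without control replicate 4. Cyp2r1, a vitamin D 25-hydroxylase, read 9.04 to 13.2 CPM in controls and 4.2 to 9.56 in knockout livers of HFCFD8W+T10D, at -0.78 (SE 0.21, adjusted p = 0.0251), under 2-fold and lost in 2 fits without 1 library. Cyp2s1 had overlapping libraries in HFCFD8W+T10D and HFCFD12W+T10W, with differences of -1.27 (SE 0.67, adjusted p = 0.225) and 1.61 (SE 0.68, adjusted p = 0.0634). Cyp2g1, better known from the nose, was not tested in any experiment and read 0.89 to 2.37 CPM in the HFCFD2W controls against 0.237 to 0.767 in the Cebpa ΔHep livers. In HFCFD8W+T10D no knockout library had a count of it, while the mean of its controls, 0.213 CPM, was under the level of 3 counts, 0.299 CPM. No fold is given for this reason.

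Control livers alone already differed between the experiments. From HFCFD2W to HFCFD8W+T10D 13 members were higher in controls, against 11.1% of all genes tested, and 4 were lower, against 2.59%. Cyp2b10 rose from a range of 0.138 to 0.71 CPM to one of 258 to 827 CPM, the largest step of the family at 10.20 (SE 0.93, adjusted p = 3.76e-09) on the log2 scale, with 1 to 5 counts a library at the lower end. Cyp2b9, Cyp2c40, Cyp2c69 and Cyp2a4, all female-predominant, rose by 4.89 (SE 0.61, adjusted p = 8.18e-07), 3.58 (SE 0.43, adjusted p = 2.4e-07), 4.56 (SE 0.50, adjusted p = 5.77e-08) and 2.24 (SE 0.51, adjusted p = 0.000793). Cyp2f2, Cyp2u1, Cyp2d9 and Cyp2d40 were the 4 that fell, with log2 differences of -2.73 (SE 0.54, adjusted p = 0.000172), -2.40 (SE 0.35, adjusted p = 3.6e-06), -1.68 (SE 0.33, adjusted p = 0.000151) and -1.40 (SE 0.16, adjusted p = 1.45e-07). From HFCFD8W+T10D to HFCFD12W+T10W 1 member rose, against 1.19%, and 2 fell, against 1.87%, or 1 and 5 at any size, against 6.31% and 5.12%. Cyp2b13 rose by 4.10 (SE 0.80, adjusted p = 0.00106), or 2.23 (adjusted p = 0.0176) without HFCFD12W+T10W control replicate 5 and 4.79 (adjusted p = 0.00134) without HFCFD8W+T10D control replicate 5. Cyp2b10 fell by 2.27 (SE 0.55, adjusted p = 0.00667) and Cyp2c69 by 1.46 (SE 0.38, adjusted p = 0.0118), the latter lost without HFCFD8W+T10D control replicate 3 (-1.18, adjusted p = 0.0608).

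The proteins that supply P450 enzymes with electrons and haem were not called over 2-fold in any experiment. Of 5 redox partners 0 passed in HFCFD2W. In HFCFD8W+T10D Cyb5r3, the reductase of cytochrome b5, differed by 0.61 (SE 0.12, adjusted p = 0.00379) on the log2 scale. In HFCFD12W+T10W it differed by 0.35 (SE 0.11, adjusted p = 0.0221), Por, the electron donor of all family members, by -1.0 (SE 0.11, adjusted p = 1.01e-05), Cyb5a by -0.63 (SE 0.08, adjusted p = 2.94e-05) and Pgrmc1 by -0.49 (SE 0.08, adjusted p = 0.00036), all under 2-fold. Of 9 genes of haem supply 3, 1 and 5 were lower at an adjusted p under 0.05 in HFCFD2W, HFCFD8W+T10D and HFCFD12W+T10W, against 8.09%, 6.85% and 23.8% of all genes, and 0 changed over 2-fold. Of the transcription factors of P450 genes 1 of 16 rose over 2-fold in HFCFD2W, Cebpb, the closest relative of Cebpa, by 1.11 (SE 0.15, adjusted p = 0.000394) on the log2 scale. Nr1i3, the receptor CAR that drives Cyp2b10, fell in both tamoxifen experiments, with differences of -1.37 (SE 0.16, adjusted p = 0.000121) and -1.49 (SE 0.12, adjusted p = 9.19e-07). Onecut1 fell by 1.31 (SE 0.41, adjusted p = 0.0451) in HFCFD8W+T10D, and Cux2, a female-predominant liver transcription factor, rose by 2.59 (SE 0.58, adjusted p = 0.00985) there and fell by 1.85 (SE 0.69, adjusted p = 0.0393) in HFCFD12W+T10W. At any size 2, 7 and 13 factors were lower and 1 was higher in each experiment, of 16, 17 and 17 tested, against the same shares of all genes lower and 8.6%, 10.3% and 27.4% higher. Hnf4a differed by -0.56 (SE 0.13, adjusted p = 0.0104) and -0.96 (SE 0.08, adjusted p = 2.21e-06) in the tamoxifen experiments.

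Beside family 2, of the P450 genes that passed the same minimum 0 of 1 tested in family 1, 0 of 4 in family 3 and 0 of 13 in family 4 changed over 2-fold in HFCFD2W. In HFCFD8W+T10D 0 of 2, 1 of 6 and 5 of 14 fell and 0, 1 and 3 rose, and in HFCFD12W+T10W 0 of 3, 1 of 6 and 5 of 14 fell and 1, 0 and 3 rose. Of all genes tested 1.69%, 4.09% and 14.3% rose over 2-fold in HFCFD2W, HFCFD8W+T10D and HFCFD12W+T10W. The shares that fell were 1.38%, 2.01% and 3.47%, and both apply to the lists that follow. Of 9 listed female-biased genes, 5 of them family members, 2 of 2 tested fell after 2 weeks of diet and 5 of 7 in either tamoxifen experiment. All that fell were family members, so these counts repeat those of the family. Cyp3a41a, from outside the family, rose in HFCFD8W+T10D by 3.07 (SE 0.95, adjusted p = 0.0413). Of 7 male-biased genes, Cyp2d9 among them, 0 of 7, 4 of 6 and 5 of 6 fell, against 1.38%, 2.01% and 3.47% of all genes tested. Of 6 genes of pericentral hepatocytes, where Cyp2e1 is known to be expressed, 1, 1 and 2 fell in the 3 experiments and 0 rose, and of 6 periportal genes 1, 1 and 3 fell and 1 rose, in HFCFD2W.

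The promoters of the members were searched for the letters of 3 factors in the 250 bases before the RefSeq start, which 30 of the 36 members had in the table for GRCm38.p6. The C/EBP core TTGCNNAA, on either strand, stood in 9 of 30 member promoters, or 30%, against 9.55% of 27025 promoters. The HNF4A letters CAAAGTCCA stood in 5 of 30, or 16.7%, against 0.381%, and TATAAA in 16 of 30, or 53.3%, against 13%. Near-copies share their sequence, so these are not separate instances. For Cyp2c29, Cyp2c39 and Cyp2d9, none of which holds the C/EBP core or the HNF4A letters, the RefSeq start lies 17680 bases or more from the start of the gene in GENCODE, so these windows may not be those of the main transcript. The 2 genes that parted in subfamily 2a both hold TTGCATAA, shown in capitals, 70 bases before the start of Cyp2a4 and 71 before that of Cyp2a5. Cyp2a4 is read at chr7:26307062-26307191 and Cyp2a5 at chr7:26835209-26835334, both on the plus strand.
Cyp2a4: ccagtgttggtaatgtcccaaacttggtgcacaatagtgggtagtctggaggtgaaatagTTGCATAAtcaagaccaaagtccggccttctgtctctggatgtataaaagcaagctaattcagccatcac
Cyp2a5: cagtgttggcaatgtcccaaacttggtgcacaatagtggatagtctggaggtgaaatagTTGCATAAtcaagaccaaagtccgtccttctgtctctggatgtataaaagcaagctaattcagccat
The genes of the 2c set all hold the HNF4A letters, and Cyp2c67 and Cyp2c69 also TTGCACAA, both in capitals. The window of Cyp2c40 ends inside the stretch that holds TTGCACAA in Cyp2c69, so a match there could not be found. The genes of the set are read from the minus strand at chr19:39812815-39812944 for Cyp2c40, chr19:39649043-39649172 for Cyp2c67, chr19:39741102-39741231 for Cyp2c68 and chr19:39886770-39886899 for Cyp2c69.
Cyp2c40: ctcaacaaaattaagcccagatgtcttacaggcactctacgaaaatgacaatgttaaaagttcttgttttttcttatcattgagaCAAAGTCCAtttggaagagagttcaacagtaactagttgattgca
Cyp2c67: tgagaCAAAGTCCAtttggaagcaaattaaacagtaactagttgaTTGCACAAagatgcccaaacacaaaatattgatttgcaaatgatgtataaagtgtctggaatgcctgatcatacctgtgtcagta
Cyp2c68: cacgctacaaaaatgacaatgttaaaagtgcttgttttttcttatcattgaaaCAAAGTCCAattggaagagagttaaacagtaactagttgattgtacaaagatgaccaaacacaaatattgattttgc
Cyp2c69: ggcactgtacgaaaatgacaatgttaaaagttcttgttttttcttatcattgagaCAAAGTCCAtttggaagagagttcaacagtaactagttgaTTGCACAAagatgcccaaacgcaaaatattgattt
A match of letters is a description and no evidence of binding, which was not measured here.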

How the data were processed

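Polyadenylated RNA of 30 male mouse livers was sequenced with a stranded kit, 5 libraries in each of 6 groups. The submitters' processing notes name Trimmomatic 0.36, STAR 2.5.1, Picard 1.84, RSEM 1.2.22 and DESeq2 (version not given) with mm10. The deposited expected counts are RSEM's estimates, in which reads that fit several genes are divided, and they were rounded here to whole numbers. The deposited TPM values are RSEM's too. A further table of TMM-scaled signal per gene that the authors filtered was used for the limma alternative only, and their RPKM table was not used. Replicate numbers come from the labels, which name biological replicates.

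Each experiment was fitted with the quasi-likelihood test of edgeR 4.0.16 in R 4.3.3, with filterByExpr, TMM scaling and Benjamini-Hochberg adjustment over all genes tested (11068, 11990 and 12463). Differences of genotype effects and between control groups came from a joint fit of the 30 libraries (12964 genes). A call needs an adjusted p under 0.05 and over 2-fold, or the adjusted p alone for differences of effects. Depth was 7996123 to 10257347 counts a library, and the level of 3 counts was taken as the floor. Read sharing was measured as the percentage of exonic 50-mers (GENCODE M21, GRCm38) found in another gene. Coding sequences come from the same annotation and promoters from RefSeq on GRCm38.p6, in which 30 of 36 members matched by symbol. The tests were checked on simulated data.

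By rule the text names the gene with the highest mean TPM of each subfamily, up to 5 called members per direction with the smallest p in each genotype comparison, and up to 5 members with the smallest p in each difference of effects. Other members, among them Cyp2a12, Cyp2a22, Cyp2b13, Cyp2c55, Cyp2c67 and Cyp2c70, are outside this rule and are to be read as chosen after their values were seen. The members and lists were chosen with earlier results of these data known. Alternatives were no low-count filter, upper quartile scaling, DESeq2 1.42.0, limma 3.58.1 on log2(signal + 1), the joint fit, a replicate block, no fold minimum, and leaving out each library; the sums over read-sharing groups were added after the data were seen. Same-numbered libraries did not deviate together, with correlations of -0.328 to 0.043, -0.074 to 0.162 and -0.046 to 0.217 in the 3 experiments, so the numbers were not taken as pairs.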

Additional observations from a re-analysis of the deposited data

Results flagged for a closer look

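In 7 of 140 groups of 5 libraries 1 library stood apart from the others by the gap it left. Chance flags about 1 in 20 independent groups. These groups are not independent, since the same libraries recur across genes, so the number does not tell whether chance gave it. All 7 flagged values were the highest of their group. Cyp2b10 read 322 CPM in HFCFD8W+T10D knockout replicate 4, next to 84.5, and Cyp2a4 read 229 CPM in the same library, next to 89.5. Cyp2a4 read 912 CPM in HFCFD8W+T10D control replicate 2, next to 553.6. Cyp2d9 read 3363 CPM in HFCFD2W control replicate 4, next to 2863, and 335 CPM in HFCFD12W+T10W knockout replicate 3, next to 245. Cyp2u1 read 2.75 CPM in HFCFD8W+T10D knockout replicate 5, next to 1.41, and Cyp2c37 read 344 CPM in HFCFD2W control replicate 5, next to 271.

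The up to 5 members with the smallest p in each difference of effects were 9 genes. For these the effect of the knockout differed between experiments by the test of the difference itself, on the log2 scale. From HFCFD2W to HFCFD8W+T10D the effect rose by 4.49 for Cyp2a4 and changed by -1.10 for Cyp2j5, -1.23 for Cyp2e1, -0.61 for Cyp2j6 and -1.13 for Cyp2c50. From HFCFD8W+T10D to HFCFD12W+T10W it changed by -0.94 for Cyp2j5, -2.65 for Cyp2f2, -0.83 for Cyp2d40, -1.38 for Cyp2c37 and -0.86 for Cyp2d26. From HFCFD2W to HFCFD12W+T10W it rose by 5.17 for Cyp2a4 and changed by -2.04 for Cyp2j5, -1.28 for Cyp2d40, -1.68 for Cyp2c50 and -2.11 for Cyp2c37. The adjusted p of edgeR ranged from 5.22e-07 for Cyp2j5 in the last of these to 0.0257 for Cyp2d26. The experiments differ in Cre allele, tamoxifen, diet time and age together, which cannot be told apart.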

How the results depend on the processing

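Of 57 values for named genes, no low-count filter and upper quartile scaling left all 57 on the same side of the threshold, DESeq2 moved 1 above an adjusted p of 0.05 and 3 below it, and the replicate block 10 above it. Of 42, limma moved 3 above and 1 below, and the joint fit 2 above and 1 below. The adjusted p rose above 0.05 for Cyp2c38 in HFCFD2W under DESeq2 (adjusted p = 0.111), limma (0.0535) and the block (0.122), Cyp2c40 in HFCFD2W under limma (0.0585), Cyp2f2 in HFCFD8W+T10D under limma (0.0969) and the block (0.0601) and, both under 2-fold and so no calls, for Cyp2f2 (0.520) and Cyp2u1 (0.0830) in HFCFD2W in the joint fit. Of 720 fits without 1 library 673 kept direction and side, 35 moved above 0.05 and 7 below it. The other 5 turned the sign of differences that had not passed: Cyp2a5 in HFCFD2W (-0.12 without Cebpa ΔHep replicate 5, with a range of -0.12 to 0.43), Cyp2d9 there (0.033 without control replicate 4 and 0.0036 or 0.0725 without Cebpa ΔHep replicate 2 or 3, range -0.0896 to 0.0725) and Cyp2e1 there (0.0306 without Cebpa ΔHep replicate 3, range -0.177 to 0.0306). DESeq2 moved below 0.05 Cyp2a5 in HFCFD8W+T10D (0.85, adjusted p = 0.0354) and, in HFCFD12W+T10W, Cyp2s1 (1.62, 0.0371) and Cyp2u1 (-0.84, 0.0398). The cause was not tested for any of these.

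Counts of members moved as follows. Without the low-count filter 2 rose in HFCFD2W, 0 had a more positive effect in HFCFD12W+T10W than in HFCFD8W+T10D, and 2 controls' levels rose between these experiments. DESeq2 gave 2 that rose in HFCFD12W+T10W, 2 more positive effects from HFCFD2W to HFCFD12W+T10W and 1 lower in controls from HFCFD8W+T10D to HFCFD12W+T10W. Limma gave 1 that rose in HFCFD8W+T10D. Without the fold minimum 4 were higher in HFCFD2W, and 11 and 5 were lower in controls over the 2 steps between experiments.

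The replicate numbers are shared between groups without marking a litter or day. With them as a block, 1 member rose in HFCFD8W+T10D, effects from HFCFD2W to HFCFD8W+T10D were more positive for 1 and more negative for 1, and those from HFCFD8W+T10D to HFCFD12W+T10W for 0 and 2. Of the named differences of effects, Cyp2e1 (-1.31, adjusted p = 0.0509), Cyp2j6 (0.0685) and Cyp2c50 (0.0633) from HFCFD2W to HFCFD8W+T10D and Cyp2d40 (0.0640), Cyp2c37 (0.0947) and Cyp2d26 (0.111) from there to HFCFD12W+T10W no longer passed, nor did Cyp2u1 in HFCFD2W (0.0907) and HFCFD8W+T10D (0.0626).

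Leaving out each library gave 2 to 4 members that fell in HFCFD2W, 1 to 3 that rose in HFCFD8W+T10D and 1 to 2 in HFCFD12W+T10W. More positive and more negative effects ranged from 1 to 2 and 4 to 8 for HFCFD8W+T10D against HFCFD2W and from 0 to 1 and 1 to 11 for HFCFD12W+T10W against HFCFD8W+T10D. In controls from HFCFD8W+T10D to HFCFD12W+T10W 1 to 2 rose and 1 to 5 fell. The family total of HFCFD12W+T10W was 0.375 of the control mean in summed CPM. At this depth members near 3 counts a library allow no statement on a difference. Among them were Cyp2d11 in both tamoxifen experiments, Cyp2g1 in HFCFD8W+T10D and Cyp2b13 in HFCFD2W. The libraries are separate samples by label, so p-values measure the spread between them.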
